A study of Durio zibethinus with 9 samples.

Results

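In durian pulp, 45 genes stood at least 4 times higher in every library of both later stages than in any library of the young stage. They were picked from the deposited expression values as the genes whose lowest FPKM (fragments per kilobase of gene, corrected for how many fragments were mapped) over the 6 libraries of the mature and ripening stages was at least 10 and at least 4 times their highest FPKM over the 3 young libraries. Of 39453 genes above 0 in at least 1 library, 49 met these limits (0.124%), and 4 of them were left out by name, namely the bidirectional sugar transporter N3 gene LOC111318443, the carotenoid dioxygenase gene LOC111280882, the ethylene-responsive transcription factor gene LOC111306880 and the cysteine synthase 2-like gene LOC111287927. The libraries came from the fruit pulp of Durio zibethinus cultivar D24, as poly-A RNA. Each of 3 ages has 3 libraries, which are 90 days (young, YS), 120 days (mature, MS) and 127 days (ripening, RS). All 9 libraries share the cultivar and the tissue, and no treatment separates them besides age and, by the study's methods, the ripening of mature fruits at room temperature before RS. Whether the fruits of a stage came from the same tree is not given in the sources used here, and the study calls the 3 libraries of each age biological replicates. The p-values cover no more than the variation among these libraries.

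Durian belongs to the climacteric fruits, whose ripening is tied to ethylene. The edible pulp is an aril, a fleshy outgrowth around the seed. While it matures and ripens, its cells soften and build up sugars, esters and sulphur volatiles. The transcription factors, acyltransferases, transporters and signalling proteins of such tissue help to set which of these routes are active, and 15 of the 45 genes carry a product name from these groups or others. The remaining 30 are given here by their locus symbol alone.

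Sequencing depth, worked out from the deposited coverage and FPKM, lay between 2350.2 and 3553 Mb of mapped bases per library. RS library 03 stood apart. It had 15171 genes at 1 FPKM or more, against 19123 to 21667 in the other 8 libraries, and its top 10 genes held 26.3% of its FPKM, against 8.34% to 12.4%. The MS libraries lay very close to each other, with a median coefficient of variation (CV) of 4.37% over tested genes at 10 FPKM or more, against 34.3% at YS and 28.7% at RS. These values cannot show whether the MS libraries come from separate fruits or repeat 1 sample. In the latter case the p-values below would be too small, and a fit with MS averaged to 1 sample is therefore given too. A check of the tissue by markers was limited to genes with a product name. Of 469 such genes tested, 0 were seed storage proteins and 1 was a photosynthesis protein, the photosystem I assembly gene LOC111286552, which had 1.03, 1.85 and 1.06 FPKM at YS and 0.334 FPKM or less in every later library. Its name came from the study's list of genes lower at MS than at YS in these same libraries. The drop is therefore no independent check of the tissue, and its values were low at every stage.

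Summed over the 45 genes, FPKM was 677, 230.1 and 433 in the YS libraries, 10311, 9812 and 9685 in the MS libraries, and 10449, 10715 and 8985 in the RS libraries. As a share of all FPKM in a library this was 0.0394% to 0.111% at YS, 1.68% to 1.79% at MS and 1.72% to 1.80% at RS. The gap between YS and the later stages is what chose the genes, so it is a description and carries no test. In whole pulp, fewer cells that use a gene and less of its RNA per cell cannot be told apart. Mean FPKM at MS was 5.46 to 1009 times that at YS, with a median of 24.4, and mean FPKM at RS was 6.18 to 2967 times that at YS, with a median of 21.8. In 6 of the 405 values (45 genes in 9 libraries) the gene was not listed and was set to 0. All of these lay at YS, in 5 genes.

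**Figure D1:**
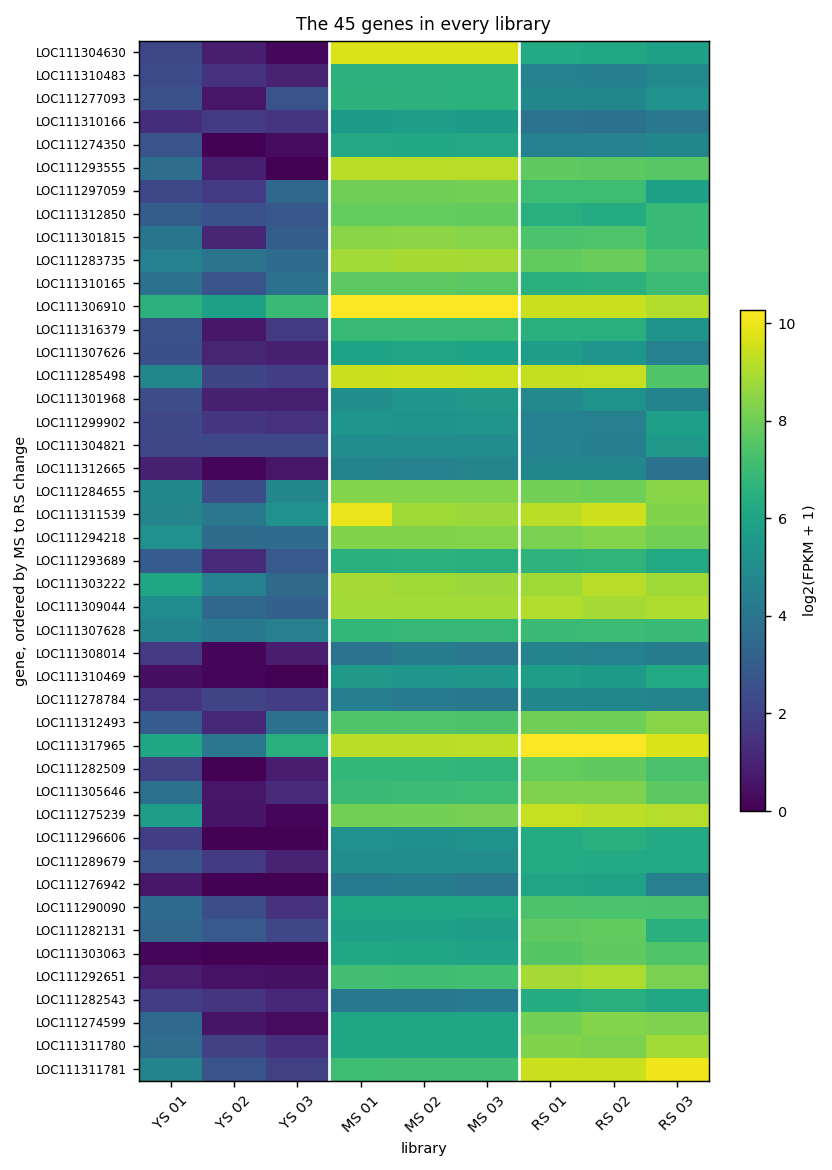
Colour gives log2(FPKM + 1) of the 45 genes (vertical axis, ordered by their change from MS to RS) in the 9 libraries (horizontal axis), with white lines between the stages. In every gene the YS libraries are darker than its own MS and RS libraries. The 3 MS libraries are nearly alike in most genes. Their CV is over 10% in 4 genes, and they lie furthest apart in LOC111311539 (991, 442 and 417 FPKM). The order from top to bottom runs from genes lower at RS than at MS to genes higher at RS.

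The limits cut through a continuous range of genes. Just inside the fold limit lay LOC111274350 (4.18 times), LOC111306910 (4.27 times) and LOC111307626 (4.57 times), and just outside it LOC111287142 (3.93 times), LOC111288518 (3.89 times) and LOC111304877 (3.88 times). Just inside the FPKM limit, by lowest MS or RS value, were LOC111310166 (13.3 FPKM), LOC111312665 (13.7) and LOC111308014 (14.2). Outside it were LOC111312600 (9.07 FPKM), LOC111315578 (7.71) and LOC111289976 (7.45). The gene farthest inside the fold limit was LOC111303063, for an acyl-CoA-binding protein-like product, at 432 times, followed by mavicyanin-like LOC111292651 at 193 times.

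Among all genes ranked by stage mean FPKM, 6 of the 45 stood in the top 100 at MS and 4 at RS, while at YS 0 did. In the top 500 there were 17 at MS, 22 at RS and 0 at YS, and in the top 1000 there were 26, 27 and 1. The rule chose for this gap, so it is a description. The highest mean at MS was that of the unnamed gene LOC111306910. It had 96.5, 56.1 and 125 FPKM at YS, 1228, 1214 and 1222 at MS, and 688, 678 and 536 at RS. The highest mean at RS belonged to LOC111317965, also unnamed, with 66.5, 15.8 and 87.9 FPKM at YS, 584, 597 and 601 at MS, and 1231, 1216 and 848 at RS. The 2 genes thus ran in opposite order between the later stages, since all RS libraries of LOC111306910 lay below its MS libraries and all RS libraries of LOC111317965 lay above. Over the 45 genes, mean FPKM had a median of 4.22 at YS, 108 at MS and 127 at RS.

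The rule set a floor in MS and RS but no order between them, so the step from MS to RS was tested. The limma test was run on log2(FPKM + 1) of the 3 MS and 3 RS libraries, two-sided, with Benjamini-Hochberg adjustment over all 21598 genes at 1 FPKM or more in at least 3 libraries. The words rose and fell are kept for a log2 fold change over 1.5 or under -1.5 with an adjusted p under 0.05. Of the 45 genes, 6 rose (13.3%), against 3.95% of all tested genes, and 6 fell (13.3%), against 5.26%. The floor leaves out genes that drop below it at RS and genes that climb to RS from an MS level under it, so both counts are shaped by the choice of genes and cannot be set directly against all tested genes. The median log2 fold change, which the floor shapes as well, was 0.04 over the 45 genes and -0.40 over all tested genes. With library 03 of RS left out, 8 of the 45 rose and 5 fell, against 6.07% and 2.92% of all tested genes. Rescaling all libraries by size factors (medians of ratios between libraries) gave 13 that rose and 1 that fell, LOC111304630, against 6.43% and 2.25% of all tested genes, and it moved the median of all tested genes to -0.02 and that of the 45 to 0.56. The other 5 falls did not pass there, at -1.46 to -0.996.

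Of the other 33 genes, 16 had an adjusted p under 0.05 with a log2 fold change within the threshold, 10 of them higher and 6 lower at RS. The remaining 17 had an adjusted p from 0.0746 to 0.876 (limma). Shares of all tested genes are not given for these counts, so nothing is read from them about the 45 as a set. Read by overlap alone, all 3 RS libraries lay above all 3 MS libraries in 20 of the 45 genes (44.4%), against 13.4% of all tested genes, and below them in 15 (33.3%), against 47.6%. The stages overlapped in the other 10. The floor in MS and RS shapes these counts as well, so they cannot be set directly against the shares of all tested genes. Means at MS and RS lay within 1.5 times of each other in 15 genes, a count also given without a share of all tested genes. With the MS libraries averaged to 1 sample, in a fit of all 3 stages whose residual spread is that of YS and RS alone, limma called 0 of the 45 as risen and 1 as fallen, the LOB domain gene LOC111304630, against 0.588% and 0.269% of all tested genes. The log2 fold changes of the 12 genes moved by 0.00332 at most there, while their standard errors lay between 0.46 and 1.08 in place of 0.16 to 0.24. Both the YS spread and MS having 1 sample enter these standard errors, and the share of each was not worked out.

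**Figure D2:**
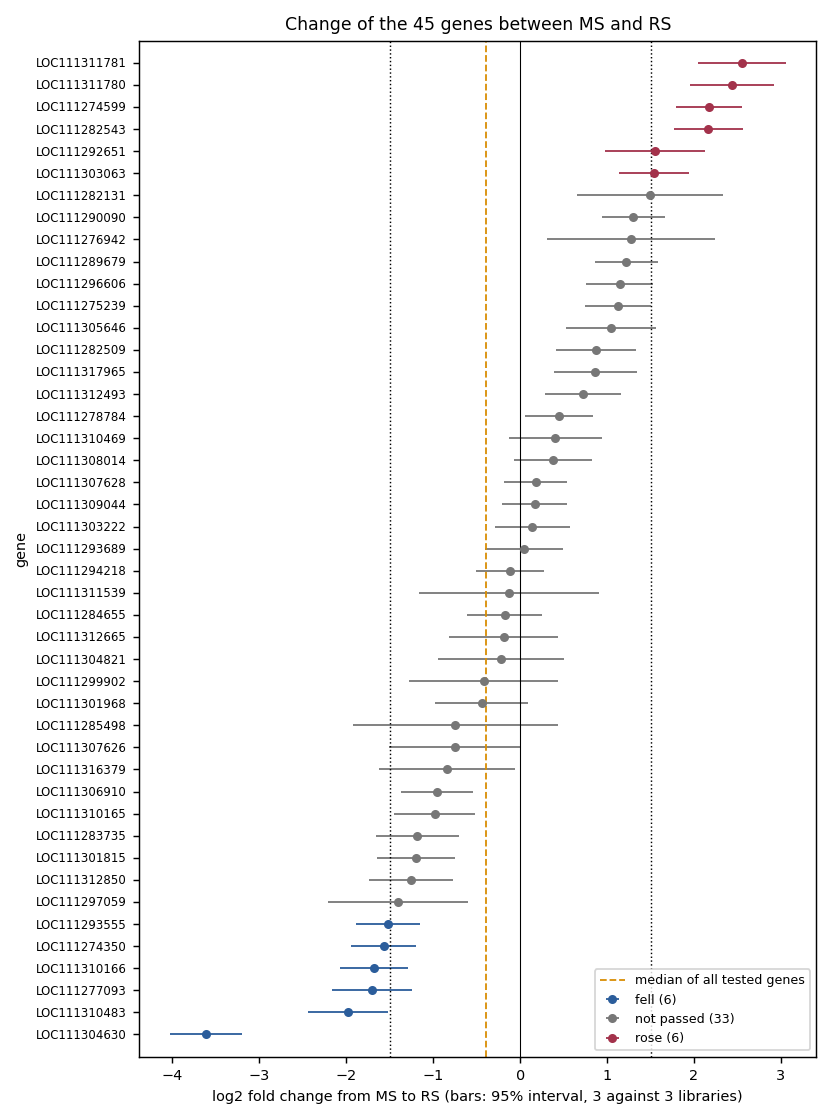
Points are log2 fold changes from MS to RS on log2(FPKM + 1) for the 45 genes, with 95% intervals from limma (3 against 3 libraries), dotted lines at the 1.5 threshold and a dashed line at the median of all tested genes (-0.40). The 6 red genes rose, the 6 blue genes fell, and the 33 grey genes did not pass, among them LOC111282131 on the line itself.

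Transcription factors made up 4 of the 15 genes with a product name, against 78 of 469 tested genes with a name (16.6%). Between MS and RS 13 of those 78 rose and 14 fell (median log2 fold change 0.18). Product names were at hand only for genes the study had chosen on these same libraries, so these counts are no independent evidence. The LOB domain-containing protein 18 gene LOC111304630 belongs to a plant family of regulators known from lateral organ boundaries and, in Arabidopsis, from lateral root formation. It had 3.62, 0.803 and 0.177 FPKM at YS, 847, 842 and 828 at MS, and 76.9, 69.4 and 58.0 at RS. The stages did not overlap, and every RS library held less than every MS library. It fell from MS to RS by 3.61 on the log2 scale (standard error 0.18, adjusted p = 8.21e-05, limma), a ratio of means of 12.3. With the MS libraries averaged the adjusted p was 0.0479.

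The second LOB gene, LOB domain-containing protein 1-like LOC111297059, held 3.61, 2.35 and 9.86 FPKM at YS, 261, 266 and 275 at MS, and 133, 133 and 57.5 at RS. RS library 03 lay well below the other two. The change from MS to RS, -1.40 on the log2 scale (standard error 0.34, adjusted p = 0.0213, limma), lay within the threshold, and it passed at -1.60 when RS library 01 or 02 was left out. NAC domain-containing protein 100-like LOC111283735, of a plant-specific family with members that control fruit ripening in tomato, had 21.5, 14.3 and 11.1 FPKM at YS, 465, 480 and 469 at MS, and 223, 243 and 164 at RS. Its levels at RS were below those at MS in all libraries, at -1.18 on the log2 scale (standard error 0.20, adjusted p = 0.0065, limma). Zinc finger protein ZAT12-like LOC111296606 ran the other way. ZAT12 in Arabidopsis is a repressor induced by cold, light and oxidative stress. The durian gene had 2.78 FPKM in YS library 01 and was not listed in the other YS libraries, against 35.7, 34.8 and 37.9 at MS and 79.0, 89.0 and 75.7 at RS. All RS libraries lay above MS, and the log2 fold change was 1.14 (standard error 0.16, adjusted p = 0.00336, limma). Of these 4 regulators, then, 1 fell and the other 3 lay within the threshold, with 2 lower and 1 higher at RS.

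A pair of genes had product names of BAHD-type acyltransferases, which join an acyl group from coenzyme A to an alcohol or amine. Benzyl alcohol O-benzoyltransferase-like LOC111293555, of an enzyme type that forms benzoate esters, held 11.8, 0.850 and 0.0165 FPKM at YS, 594, 587 and 578 at MS, and 215, 205 and 191 at RS. Shikimate O-hydroxycinnamoyltransferase-like LOC111274350, of the enzyme type that leads phenylpropanoids towards lignin monomers, held 5.28, 0.0491 and 0.282 FPKM at YS, 71.3, 70.5 and 72.0 at MS, and 22.1, 22.6 and 25.5 at RS. In both genes YS library 01 was far above the other YS libraries, and RS lay below MS with no overlap. LOC111293555 fell by 1.52 (standard error 0.16, adjusted p = 0.000998, limma) and LOC111274350 fell by 1.57 (standard error 0.16, adjusted p = 0.000925, limma). LOC111293555 did not pass without RS library 03 (-1.48), and LOC111274350 did not with a pseudocount of 5 (-1.43). With size factors and RS library 03 left out, neither passed (-1.32 for LOC111293555 and -1.48 for LOC111274350). LOC111293555 was 1 of 49 tested genes in the list of specialised metabolism, which held 10.4% of all tested genes with a name. Of those 49, 8 rose and 8 fell (median log2 fold change 0.07), and LOC111274350 was in none of the lists.

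Of the genes for lipid handling, 1 rose and the other lay within the fold threshold. Acyl-CoA-binding protein-like LOC111303063, of a family of carriers of activated fatty acids, had 0.138 FPKM in YS library 01, was not listed in library 02 and had 0.0565 in library 03. It held 70.5, 66.2 and 59.6 FPKM at MS and 186, 213 and 178 at RS. The stages did not overlap, and it rose from MS to RS by 1.54 (standard error 0.17, adjusted p = 0.00135, limma). It did not pass with a pseudocount of 5 (1.49), without MS library 03 (1.48) or without RS library 02 (1.47). Non-specific phospholipase C4-like LOC111276942, of an enzyme type that removes the head group of phospholipids, had 0.562 and 0.0443 FPKM in YS libraries 01 and 02 and was not listed in library 03. It held 17.13, 18.9 and 16.1 FPKM at MS and 63.3, 59.5 and 21.5 at RS. RS library 03 was close to the MS level, while the other RS libraries were far above it. The log2 fold change was 1.27 (standard error 0.41, adjusted p = 0.0491, limma), and it passed at 1.76 without RS library 03. They were 2 of 8 tested genes in the list of lipid and acyl metabolism, which held 1.71% of all tested genes with a name. Over those 8 genes 1 rose and 1 fell (median log2 fold change 0.27).

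Mavicyanin-like LOC111292651 encodes a small blue copper protein of the plant phytocyanin family. It had 0.722, 0.422 and 0.365 FPKM at YS, 146, 139 and 140 at MS, and 476, 515 and 297 at RS. All libraries of a later stage lay above those of the stage before. It rose by 1.55 (standard error 0.24, adjusted p = 0.00477, limma), but not when RS library 01 (1.46) or 02 (1.40) was left out. A stretch of 96 bases overlaps the neighbouring gene LOC111292650 on the same strand, which had 4.75 FPKM at most.

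The named genes of membranes included a pair of transmembrane protein 45A-like genes and a transporter. LOC111285498 held 25.04, 3.48 and 2.74 FPKM at YS, 693, 731 and 710 at MS, and 643, 660 and 178 at RS. LOC111301815 held 14.8, 1.15 and 7.21 FPKM at YS, 350, 359 and 342 at MS, and 164, 172 and 123 at RS. In LOC111285498 only RS library 03 stood clearly below MS, and its log2 fold change of -0.75 had a 95% interval from -1.93 to 0.43. For LOC111301815 every RS library lay below MS, at -1.20 on the log2 scale (standard error 0.19, adjusted p = 0.00498, limma). Protein DETOXIFICATION 33 LOC111312665, of the MATE family that moves small molecules out of the cytosol in exchange for ions, stood near the FPKM limit of the rule. It held 0.932, 0.0971 and 0.556 FPKM at YS, 24.1, 22.2 and 24.8 at MS, and 25.2, 25.4 and 13.7 at RS. Its interval from MS to RS ran from -0.82 to 0.44.

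Genes of signalling and protein turnover numbered 2 of the 15 with a name, and neither passed. Among all tested genes with a name they were 88 of 469 (18.8%). Serine/threonine-protein kinase WNK5 LOC111307626, of a kinase family named for the lack of a lysine at its usual place, had 4.74, 1.07 and 0.860 FPKM at YS, 61.0, 62.2 and 60.4 at MS, and 52.7, 40.5 and 21.6 at RS. Aspartic proteinase Asp1-like LOC111316379, of a family of acid proteases, had 4.87, 0.597 and 2.36 FPKM at YS, 120, 121 and 122 at MS, and 90.5, 85.4 and 39.1 at RS. All RS libraries of both genes lay below MS and library 03 lay lowest, with log2 fold changes of -0.75 (95% interval -1.51 to 0.01) and -0.84 (-1.62 to -0.06) and adjusted p-values of 0.106 and 0.0862. UPF0496 protein At4g34320-like LOC111309044, of an uncharacterised plant family, had 30.9, 9.91 and 7.90 FPKM at YS, 460, 457 and 453 at MS, and 546, 474 and 521 at RS. Its level at RS was 1.13 times that at MS, with an interval on the log2 scale from -0.21 to 0.54. Among all tested genes with a name, the lists of cell wall genes and of hormone genes held 69 each (14.7%). The list of transport genes held 24 (5.12%), that of sugar and starch genes 21 (4.48%) and that of stress and redox genes 17 (3.62%). Of these lists, 0 of the 45 were members. That count is set in part by the genes left out by name, since the sugar transporter, the carotenoid dioxygenase and the ethylene-responsive factor met the limits. The list of transport genes was made from words in product names and did not catch LOC111312665.

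The steepest rises from MS to RS lay among the 30 genes without a product name, of which 4 rose, 3 fell and 23 did not pass. LOC111274599 had 10.3, 0.516 and 0.217 FPKM at YS, 66.8, 66.6 and 66.2 at MS, and 277, 324 and 313 at RS. LOC111282543 had 2.65, 2.00 and 1.19 FPKM at YS, 16.98, 16.9 and 17.098 at MS, and 80.4, 88.9 and 70.5 at RS. The MS libraries of both genes were within 1 FPKM of each other and all RS libraries lay far above them. LOC111274599 rose by 2.17 (standard error 0.16, adjusted p = 0.000267, limma), and LOC111282543 rose by 2.16 (standard error 0.17, adjusted p = 0.000338, limma).

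The deepest falls without a name were those of LOC111310483, LOC111277093 and LOC111310166. LOC111310483 held 3.97, 1.86 and 0.954 FPKM at YS, 95.7, 94.5 and 96.9 at MS, and 21.5, 20.4 and 29.4 at RS. LOC111277093 held 4.83, 0.535 and 5.37 FPKM at YS, 99.8, 94.7 and 92.0 at MS, and 26.2, 25.2 and 35.8 at RS. In both, RS library 03 was the highest of its stage and still below every MS library. LOC111310483 fell by 1.98 (standard error 0.19, adjusted p = 0.000829, limma), and LOC111277093 fell by 1.70 (standard error 0.19, adjusted p = 0.00149, limma).

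Next to the threshold stood LOC111282131, with 9.51, 6.39 and 3.53 FPKM at YS, 58.1, 57.6 and 53.2 at MS, and 210.4, 220.3 and 89.6 at RS. Its log2 fold change of 1.499 lay just under the threshold (standard error 0.35, adjusted p = 0.0198, limma), and without RS library 03 it was 1.92 and passed. The other unnamed genes with an adjusted p under 0.05 inside the threshold were higher at RS in LOC111312493, LOC111317965, LOC111282509, LOC111305646, LOC111275239, LOC111289679 and LOC111290090, and lower in LOC111312850, LOC111310165 and LOC111306910. LOC111305646 had 12.9, 0.533 and 1.43 FPKM at YS, 126, 132 and 134 at MS, and 313, 310 and 202 at RS. LOC111282509 had 2.87 FPKM in YS library 01, was not listed in library 02 and had 0.697 in library 03, against 109, 111 and 105 at MS and 226, 217 and 161 at RS. In both, RS library 03 was the lowest of its stage but above all MS libraries. LOC111312493 had 7.01, 1.22 and 13.6 FPKM at YS, 176, 171 and 169 at MS, and 265, 253 and 345 at RS. LOC111312850 had 7.14, 4.99 and 5.93 FPKM at YS, 228, 229.7 and 224 at MS, and 89.1, 78.8 and 120 at RS. RS library 03 was the highest of its stage in these genes, whose RS libraries lay all above MS in LOC111312493 and all below in LOC111312850. Counting the named genes too, log2 fold changes in these 16 ran from 0.73 to 1.499 and from -1.40 to -0.95.

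The unnamed genes with an adjusted p of 0.05 or more between MS and RS differed in how well their change was fixed. LOC111294218 had 36.1, 11.4 and 11.1 FPKM at YS, 316, 322 and 326 at MS, and 291, 331 and 269 at RS. LOC111303222 had 66.0, 21.6 and 10.8 FPKM at YS, 466, 442 and 417 at MS, and 450, 577 and 442 at RS. MS and RS overlapped in both, and their 95% intervals ran from -0.51 to 0.27 and from -0.29 to 0.57. A p that misses the threshold does not make these levels equal. The interval was wider for LOC111311539, which had 991 FPKM in MS library 01 and 442 and 417 in the other MS libraries, the widest MS spread of the 45 (CV 52.6%), and 586, 745 and 323 at RS. It ran from -1.16 to 0.91. The others were LOC111301968, LOC111299902, LOC111304821, LOC111284655, LOC111293689, LOC111307628, LOC111308014, LOC111310469 and LOC111278784. LOC111310469 was nearly absent at YS, with 0.332 and 0.111 FPKM in libraries 01 and 02 and no entry in library 03, and held 44.5, 41.0 and 43.9 at MS and 52.1, 46.9 and 77.2 at RS. LOC111284655 had 27.02, 4.27 and 26.2 FPKM at YS, 327, 332 and 332 at MS, and 275, 258 and 349 at RS. Only RS library 03 lay above MS in LOC111284655, and all 3 did in LOC111310469. LOC111293689 had 6.94, 1.34 and 6.39 FPKM at YS, 90.1, 92.5 and 86.0 at MS, and 101, 103 and 75.2 at RS. LOC111278784 had 2.02, 3.28 and 2.69 FPKM at YS, 20.4, 17.2 and 16.9 at MS, and 26.01, 25.1 and 24.05 at RS. Its RS libraries all lay above MS, with an adjusted p of 0.0746 (limma), the lowest of the 17.

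The gene table of another durian assembly, matched by symbol for 40 of the 45, listed 35 as protein coding, which is 87.5% against 88.4% of the tested genes it matched. It listed LOC111316379, LOC111282543 and LOC111311781 as transcribed pseudogenes and LOC111311539 and LOC111310469 as pseudogenes. Reads of such genes can be shared with a near-identical copy, so the levels of these 5 are uncertain. Of them, LOC111282543 and LOC111311781 are among the 6 that rose.

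The 45 genes lay on 21 scaffolds of the durian reference used by the authors, with 6 at most on one scaffold, NW_019167937.1, and 21 on the plus and 24 on the minus strand. There were 4 pairs within 50 kb. LOC111311781 (NW_019167937.1:4067660-4070752) and LOC111311780 (NW_019167937.1:4077420-4080590) are 6667 bases apart on the minus strand, with 0 listed genes between them. LOC111311781 had 23.8, 5.30 and 2.82 FPKM at YS, 132, 136 and 137 at MS, and 688, 701 and 1044 at RS. LOC111311780 had 11.8, 3.05 and 1.58 FPKM at YS, 64.6, 65.6 and 63.9 at MS, and 322, 304 and 457 at RS. In every library the first held more FPKM, and their ratio stayed between 1.73 and 2.31 over all 9. Whether LOC111311781 and LOC111311780 share reads was not tested, so they may not be separate measurements. Both were highest in RS library 03. These were the steepest rises of the 45 from MS to RS, as LOC111311781 rose by 2.55 (standard error 0.21, adjusted p = 0.000441, limma) and LOC111311780 rose by 2.44 (standard error 0.21, adjusted p = 0.000452, limma).

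LOC111289679 (NW_019168381.1:4291217-4296785) contains LOC111290090 (NW_019168381.1:4291415-4294381) on the same strand, so that 2967 bases are common to both. LOC111289679 had 5.504, 2.34 and 1.02 FPKM at YS, 32.1, 32.7 and 32.5 at MS, and 78.9, 77.2 and 74.6 at RS. LOC111290090 had 10.9, 4.48 and 1.87 FPKM at YS, 64.6, 65.2 and 65.9 at MS, and 168, 161 and 158 at RS. Their ratio lay between 1.83 and 2.13 in all libraries, and reads of the shared bases cannot be assigned to one of them with certainty, so they may not be separate measurements. Both were higher at RS in all libraries, with log2 fold changes of 1.22 and 1.302 (adjusted p = 0.0021 and 0.00166, limma).

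LOC111310166 (NW_019167926.1:6100562-6104710) contains LOC111310165 (NW_019167926.1:6100606-6101432), again on the same strand with 827 shared bases. LOC111310166 had 1.504, 2.39 and 1.95 FPKM at YS, 47.8, 51.0 and 46.7 at MS, and 14.1, 13.3 and 16.1 at RS. LOC111310165 had 13.5, 5.38 and 13.3 FPKM at YS, 207, 213 and 199 at MS, and 89.7, 95.9 and 130.3 at RS. This pair was less close, with a ratio from 2.26 to 9.01. Reads of the shared bases cannot be assigned with certainty here either, so these genes may not be separate measurements. LOC111310166 fell by 1.68 (standard error 0.16, adjusted p = 0.000849, limma), but not with a pseudocount of 5 (-1.46), and LOC111310165 lay within the threshold at -0.98 (adjusted p = 0.0116, limma). LOC111309492, which is not among the 45, lies inside LOC111310166 too and had 160, 168 and 155 FPKM at MS and 40.7, 35.2 and 41.4 at RS. The fourth pair, WNK5 LOC111307626 and LOC111307628, lay 26930 bases apart with 3 listed genes between them. LOC111307628 had 23.9, 16.6 and 21 FPKM at YS, 109, 112 and 115 at MS, and 125, 130 and 125 at RS. The kinase gene was lower at RS than at MS and its neighbour slightly higher, and the ratio ran from 1.79 to 24.4.

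**Figure D3:**
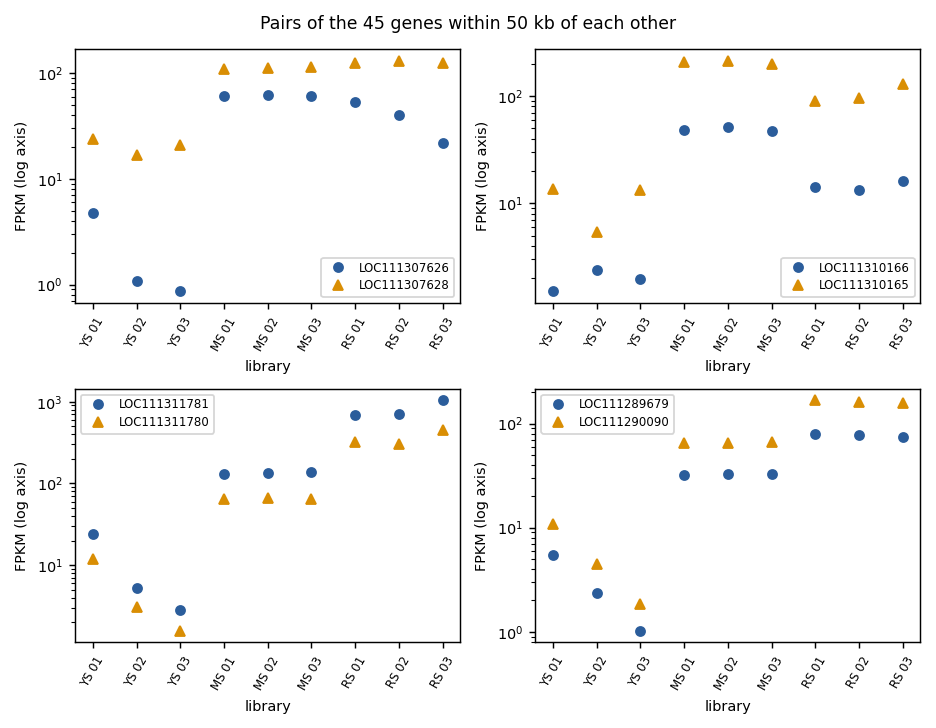
Each panel shows 1 of the 4 pairs of genes within 50 kb, with FPKM on a log axis against the 9 libraries and 1 point per gene and library. In the lower panels the points of both genes keep a near-constant distance (ratios of 1.73 to 2.31 on the left and 1.83 to 2.13 on the right), and in the upper panels they do not.

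In all, 8 of the 45 genes (17.8%) overlapped another listed gene, against 9.46% of tested genes. The counting is not stated to use strand, so reads of genes that overlap on opposite strands cannot be told apart. LOC111308014 shares 564 bases with LOC111308026 on the opposite strand, a methionine gamma-lyase gene by its product name, of the enzyme that frees methanethiol from methionine. LOC111308014 had 2.25, 0.117 and 0.745 FPKM at YS, 14.2, 19.4 and 15.9 at MS, and 23.8, 21.7 and 19.3 at RS. LOC111308026 had 0.714 FPKM in YS library 01, was not listed in YS library 02 and had 0.106 in library 03, with 9.47, 7.93 and 8.18 at MS and 4.71, 2.71 and 3.66 at RS. Both were low at YS, while at RS LOC111308014 was above its MS mean and LOC111308026 below.

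At YS the 45 genes differed widely between libraries, which is given as a description because the rule used these values. Their YS CV had a median of 79.1%, against 34.3% over tested genes at 10 FPKM or more, a comparison not matched for level. YS library 01 was the highest of the 3 in 36 genes (80.0%), against 30.98% of all tested genes. In 13 genes it was over 4 times both other YS libraries, against 1.70% of tested genes. The clearest case was LOC111275239, with 53.7 FPKM in YS library 01 and 0.482 and 0.119 in libraries 02 and 03, against 274, 278 and 282 at MS and 661, 609 and 563 at RS. LOC111304821 was at the other end, with 3.57, 3.70 and 3.68 FPKM at YS. Left out of the rule, that library would let 136 genes in, among them all 45.

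**Figure D4:**
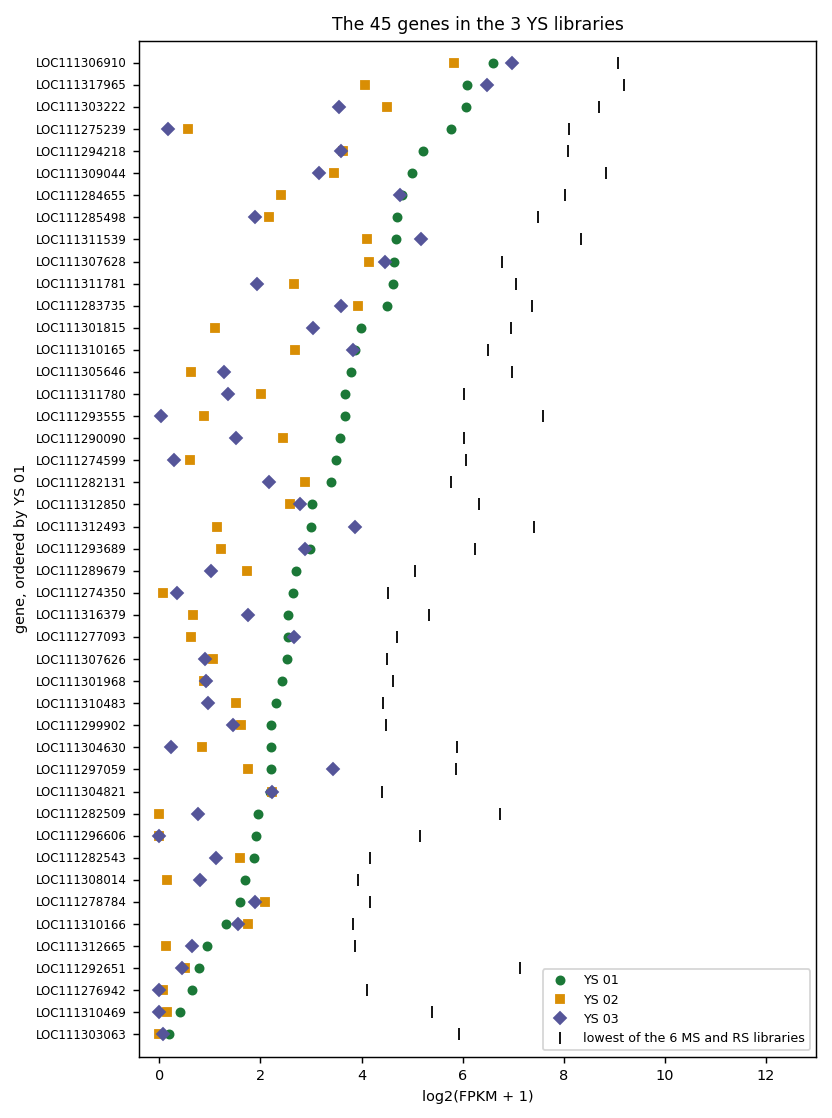
Points are log2(FPKM + 1) of the 45 genes in the 3 YS libraries, ordered by YS library 01, and black ticks mark the lowest of the 6 MS and RS libraries. YS library 01 is the rightmost YS point in 36 of the 45 genes, and every tick lies to the right of all YS points.

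At MS the 45 genes had a median CV of 2.42%, and at RS one of 17.498%, against 4.37% and 28.7% for all tested genes at 10 FPKM or more. The rule rests on the lowest MS and RS library and so favours genes with little spread there, and nothing is read from this difference. RS library 03 lay below both other RS libraries in 30 of the genes (66.7%) and above both in 13, while 91.7% of 7920 tested genes with a mean of 10 FPKM or more in libraries 01 and 02 had library 03 below both. Its FPKM was 0.886 times the mean of libraries 01 and 02 in the median gene of the 45, with a range from 0.273 in LOC111285498 to 2.52 in LOC111299902, against a median of 0.564 over the 7920 genes. Since RS library 03 had to meet the limits too, genes that were low in it could not be chosen, and neither difference is a result about the 45. LOC111299902 had 21.9 and 21.4 FPKM in RS libraries 01 and 02 and 54.7 in library 03, against 41.5, 38.2 and 40.2 at MS.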

How the data were processed

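The authors sequenced poly-A RNA of 9 pulp libraries and made 1 table per library with StringTie. The study mapped reads with CLC, TopHat and HISAT2 and describes StringTie after HISAT2, while the submitters' processing notes name FastQC, Trimmomatic, Bowtie and TopHat without versions, so the mapper behind the values is uncertain. The FPKM deposited by the authors are scaled to gene length and mapped fragments. The coverage (signal) deposited by the authors is the mean read depth per base and served only to work out mapped bases. The TPM column deposited by the authors was treated as a score and not used. No counts were given, so no count model was fitted and the depth in reads is unknown. Stage groups came from sample titles.

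The members and lists were chosen with earlier results of these data known. Unlisted genes were set to 0, and loci assembled anew were left out. Stages were compared from MS to RS alone, with limma 3.58.1 in R 4.3.3 on log2(FPKM + 1), without trend, for 21598 genes at 1 FPKM or more in at least 3 libraries. The method was tested on simulated data. At low FPKM the added 1 makes a fold change smaller than the ratio of means. Alternatives were another pseudocount, no filter, size factors, a replicate block, a trend, MS averaged to 1 sample, each library left out, and other limits of the rule. Genes named are those with a product name in the study, the 10 with the highest mean over MS and RS, the 5 largest rises and falls, pairs within 50 kb and genes next to a limit; other genes were named after their values were seen. The gene table of another assembly gave gene types only. Python 3.11.15, pandas 2.3.3, NumPy 2.4.6 and Matplotlib 3.10.9 were used. No sequence of these genes was used here.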

Additional observations from a re-analysis of the deposited data

How the results depend on the processing

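Size factors gave 13 genes that rose and 1 that fell, against 6.43% and 2.25% of all tested genes. With RS library 03 also left out, a setting chosen after seeing the data, they gave 8 and 4, against 6.88% and 2.26%. Averaging the MS libraries gave 0 and 1. Leaving out 1 library at a time gave 4 to 8 that rose and 5 to 7 that fell. Over all tested genes the shares there were 3.31% to 6.07% and 2.92% to 7.49%. The fall of LOC111304630 passed in all 14 alternatives, and the other 11 calls were lost with MS averaged (adjusted p from 0.091 to 0.545, limma), where log2 fold changes stayed within 0.00332 and standard errors grew, in a fit whose error came from YS and RS. The sign of small changes turned under size factors in LOC111284655 (0.35), LOC111294218 (0.41), LOC111299902 (0.10), LOC111301968 (0.069), LOC111304821 (0.29), LOC111311539 (0.40) and LOC111312665 (0.31). It turned under size factors without RS library 03 in LOC111285498 (0.033), LOC111294218 (0.11), LOC111311539 (0.38) and LOC111312665 (0.24). With 1 library left out it turned in LOC111293689 without RS library 01 or 02 (range -0.039 to 0.19), in LOC111311539 without MS library 01 or RS library 03 (-0.38 to 0.28) and in LOC111312665 without RS library 03 (-0.33 to 0.091). The cause was not tested. The rule gave 75 genes at 3 times the highest YS library, 145 with stage means, and 45 to 136 with 1 library left out (136 without YS library 01, 73 without RS library 03). With a replicate block 6 genes rose and 6 fell, as without it, against 4.16% and 5.42% of all tested genes. Libraries of the same number showed no shared deviation across genes (r = -0.0038, -0.0038 and -0.0028). Libraries of different number gave r from -0.0055 to 0.0091. The MS libraries lay so close together that this check cannot show whether the numbers pair the libraries. Over all tested genes, 853 rose and 1136 fell, against 437 and 403 with a pseudocount of 5, 1285 and 2122 with 0.1, 1389 and 485 with size factors, 1310 and 630 without RS library 03, and 127 and 58 with MS averaged. Depth limits genes with low coverage. The lowest mean depth per base of the 45 at MS or RS was 23.1, and at YS the highest of the 3 libraries was as low as 0.362.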
